A study of Mus musculus with 17 samples.

Results

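The transcripts described here are the 10 genes of MHC class II antigen presentation: the class II chain genes H2-Aa, H2-Ab1 and H2-Eb1, the invariant chain gene Cd74, the transactivator gene Ciita, and the genes of the peptide exchange molecules H2-DMa, H2-DMb1, H2-DMb2, H2-Oa and H2-Ob. They were taken by symbol, 1 row each, from a table of 47643 gene symbols, and all 10 were found and passed the filter on low values (at least 1 TPM in at least 3 mice). RNA came from the diaphragm, the main muscle of breathing, of 17 male C57BL/6J mice, all 4 months old. Tumor-free mice formed the groups Control (n = 5) and Control + rFibcd1 (n = 5). Tumor-bearing mice, which received Lewis lung carcinoma (LLC) cells under the skin of the flanks, formed the groups LLC (n = 3) and LLC + rFibcd1 (n = 4). rFibcd1 is a recombinant C-terminal fragment of mouse Fibcd1 given into the peritoneal cavity, and the mice of the other groups received mock injections. The LLC cells are 1 transplanted line, so the tumor groups stand for that line only.

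MHC class II molecules present peptides from the endosomes of a cell to CD4 T cells. An alpha and a beta chain assemble with the invariant chain, which blocks the groove and guides the complex to endosomes, where proteases trim it and H2-M exchanges the remaining fragment for peptides. B cells, dendritic cells and activated macrophages carry most class II, and the transactivator Ciita, which does not bind DNA itself, switches the genes on through factors bound at short conserved promoter boxes.

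These boxes are visible in the promoters, and they are shown because the 10 transcripts moved together in these mice. RefSeq windows on build GRCm38.p6, from 250 bases before to 50 bases after the gene start, were matched for 7 of the 10 genes. H2-Ab1, Ciita and Cd74 had no entry. The letters were chosen after the sequences were seen. A Y box core, TGATTGG or CCAATCA on the other strand, was present in the windows of 6 of these 7 genes, and in 2568 of all 32851 windows (7.82%). In the 6 genes it began between 45 and 92 bases before the gene start. An X box pattern, CNNATGATG or CATCATNNG on the other strand, was present in 4 of the 7 genes (H2-Eb1, H2-DMb1, H2-DMb2 and H2-Ob), and in 902 of all windows (2.75%). In these 4 it ended 15 to 18 bases before the Y box core on the same strand. With that spacing, which was read from the same 4 genes, the pair of patterns was present in 4 of all windows (0.0122%), those of these genes. Neither pattern was present in the 2 windows of H2-DMa. A match describes letters in a window and is not evidence of a bound site. An X box with other letters is missed by this pattern, so H2-Aa, H2-Oa and H2-DMa are not shown to lack one. The stretches of 87 bases around the Y box core, 5′ to 3′ on the strand of the gene, have both patterns in capitals.
H2-Aa, chr17:34287847-34287933, minus strand: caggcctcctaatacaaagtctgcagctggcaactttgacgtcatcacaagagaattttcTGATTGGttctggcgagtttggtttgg
H2-Eb1, chr17:34305746-34305832, plus strand: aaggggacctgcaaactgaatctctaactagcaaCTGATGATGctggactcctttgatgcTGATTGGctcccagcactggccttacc
H2-DMb1, chr17:34153068-34153154, plus strand: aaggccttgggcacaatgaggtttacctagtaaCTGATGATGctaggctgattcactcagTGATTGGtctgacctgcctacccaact
H2-DMb2, chr17:34145097-34145183, plus strand: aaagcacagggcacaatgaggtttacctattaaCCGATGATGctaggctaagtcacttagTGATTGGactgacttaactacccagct
H2-Oa, chr17:34092274-34092360, plus strand: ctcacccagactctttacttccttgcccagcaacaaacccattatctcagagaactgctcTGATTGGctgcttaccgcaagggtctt
H2-Ob, chr17:34238786-34238872, plus strand: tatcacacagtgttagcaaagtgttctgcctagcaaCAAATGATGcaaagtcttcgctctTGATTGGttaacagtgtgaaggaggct

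The values are TPM, transcript abundances corrected for gene length and scaled to the same total in each mouse, so levels can be compared between genes. The depth, estimated from the steps between low values, was 50.7 to 54.6 per mouse in units of 1000000 reads. Mitochondrially encoded transcripts made up 45.9% to 48.4% of TPM in Control and 41.3% to 44.3% in LLC, and a smaller share raises the TPM of the other genes. In bulk RNA, a change in the number of cells that express a gene and a change in RNA per cell cannot be told apart. Nothing in the labels separates animals by batch, and p-values measure the spread between mice.

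In Control diaphragm, Cd74 was the most abundant of the 10 transcripts, with 285 ± 92.9 TPM (SD, n = 5). Its range over the Control mice did not overlap that of the next gene, H2-Eb1, at 120 ± 37.1 TPM (SD, n = 5). H2-Aa (88.9 ± 29.2) and H2-Ab1 (85.4 ± 26.5), which encode the alpha and beta chain of I-A, overlapped each other and H2-Eb1, and lay above every remaining gene. H2-Eb1 encodes the beta chain of I-E. The pseudogene H2-Ea-ps, which stands in place of the I-E alpha chain gene in this strain, was listed at 0 in all 17 mice.

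The genes of the accessory molecules formed a lower tier whose neighbours all overlapped in range. H2-DMa and H2-DMb1, the alpha and a beta chain of the peptide exchanger H2-M, averaged 9.19 ± 3.29 and 9.06 ± 2.76 TPM (SD, n = 5). The second beta chain gene of H2-M, H2-DMb2, averaged 6.56 ± 5.68 TPM. H2-Ob and H2-Oa, the chains of the H2-M inhibitor H2-O, averaged 3.46 ± 2.49 and 2.05 ± 1.87 TPM, and Ciita averaged 1.67 ± 0.804 TPM. Levels of H2-Oa reached 1 TPM in only 3 of 5 Control mice, with an estimated 4 to 499 reads per mouse over all 17 mice, so its lowest values rest on few reads.

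The spread between mice of 1 group was wide and differed between the genes. In Control, the coefficient of variation lay between 30.4% and 35.8% for H2-Aa, H2-Ab1, H2-Eb1, Cd74, H2-DMa and H2-DMb1. It was 48.0% for Ciita, 71.8% for H2-Ob, 86.7% for H2-DMb2 and 91.3% for H2-Oa. Over all 17 mice, the highest value was 5.43 to 8.13 times the lowest in the first 6 genes, 16.1 times in Ciita, 39.6 times in H2-Ob, 42.2 times in H2-DMb2 and 117 times in H2-Oa. LLC replicate 3 had the highest value of each of the 10 transcripts. The 3 LLC mice were close to each other, with a coefficient of variation between 8.2% (H2-Ab1) and 21.8% (Ciita).

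**Figure D1:**
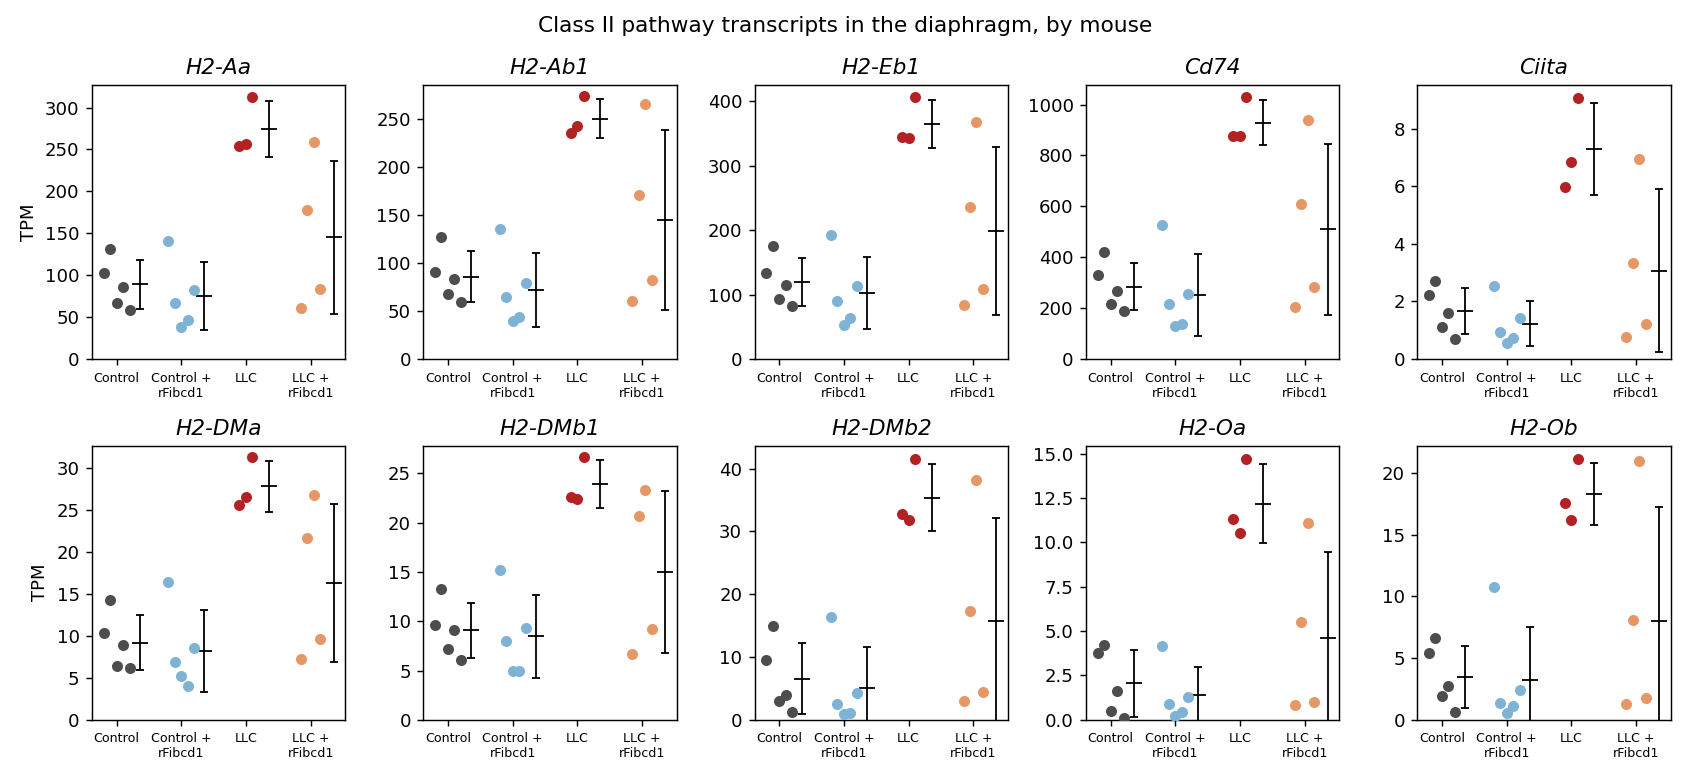
TPM (linear axis from 0) of each of the 10 class II transcripts, with 1 point per mouse in order of replicate number and, beside each group, the mean and SD (bars below 0 are not drawn). The 3 LLC mice lie above all Control and Control + rFibcd1 mice in every panel, and the 4 LLC + rFibcd1 mice are spread from the Control to the LLC range.

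The first comparison asked whether class II transcripts change in the diaphragm of mice with LLC tumors. All 10 were higher in LLC than in Control at an adjusted p under 0.05 (limma, adjusted over 13305 genes), against a background of 35.8% of genes called in either direction and 29.7% called higher. These shares hold for the deposited scaling. The groups did not overlap in any of the 10, which held for 40.2% of all genes tested. Dunn's test, the rank test of the study, called 0 of the 10 (adjusted p 0.118 to 0.123) and 0% of all genes, while all 10 had an unadjusted p under 0.05 in it, beside 37.5% of all genes. The median change of the 10 was 1.67 (log2), beside 0.16 for all genes.

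Among the chains that hold the peptide, H2-Ab1 in Control replicates 1 to 5 was at 90.4, 127, 67.1, 83.6 and 58.9 TPM, and in LLC replicates 1 to 3 at 235, 242 and 273 TPM. The lowest LLC mouse was thus well above the highest Control mouse. H2-Ab1 rose by 1.59 ± 0.44 (log2 of TPM + 1, SE; adjusted p = 0.0170, limma). H2-Aa rose by 1.67 ± 0.45, from 58.3 to 131 TPM over the Control mice to 254 to 313 TPM over the LLC mice (adjusted p = 0.0155). H2-Eb1 rose by 1.65 ± 0.46, from 82.0 to 176 TPM to 342 to 407 TPM (adjusted p = 0.0165). The 3 chain genes rose by nearly the same amount, and their ratios held over all 17 mice, between 0.978 and 1.15 for H2-Aa to H2-Ab1 and between 1.32 and 1.49 for H2-Eb1 to H2-Ab1.

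Cd74, the invariant chain, was at 329, 420, 218, 269 and 187 TPM in Control replicates 1 to 5 and at 878, 876 and 1030 TPM in LLC replicates 1 to 3. It rose by 1.76 ± 0.48 (log2, SE; adjusted p = 0.0165, limma), a fold of 3.38. Cd74 was 3.11 to 3.88 times as abundant as H2-Ab1 over the 17 mice. The 3 LLC mice were between 3.62 and 3.76 and touched the Control span (3.18 to 3.64) at its upper end.

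Ciita, the switch of the pathway, was at 2.22, 2.70, 1.13, 1.61 and 0.709 TPM in Control replicates 1 to 5 and at 5.99, 6.85 and 9.08 TPM in LLC replicates 1 to 3. All 3 LLC mice were above the highest Control mouse. Ciita rose by 1.67 ± 0.41 (log2, SE; adjusted p = 0.0128, limma), the lowest adjusted p of the 10. As its level was low, the pseudocount of 1 TPM compresses this change, and with a pseudocount of 0.1 TPM all 10 transcripts also passed, with changes of 1.44 to 3.21.

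H2-M and H2-O genes fell into a group with changes like those of the chains and a group with larger ones. H2-DMa rose by 1.55 ± 0.42 (adjusted p = 0.0153) and H2-DMb1 by 1.34 ± 0.38 (adjusted p = 0.0179), the smallest change of the 10. H2-DMb2 was at 9.59, 15.0, 2.96, 4.02 and 1.19 TPM in Control replicates 1 to 5 and at 32.8, 31.8 and 41.5 TPM in LLC replicates 1 to 3. It was the member with the largest change, 2.60 ± 0.82 (log2, SE; adjusted p = 0.0259), and with the widest interval (95%, 0.85 to 4.36). H2-Oa was at 3.78, 4.20, 0.477, 1.64 and 0.126 TPM in Control and at 11.3, 10.5 and 14.7 TPM in LLC, a change of 2.35 ± 0.65 (adjusted p = 0.0167). H2-Ob rose by 2.31 ± 0.75 (adjusted p = 0.0281), from 0.643 to 6.63 TPM over the Control mice to 16.2 to 21.1 TPM over the LLC mice. Thus the 3 genes that varied most between Control mice were also the 3 with the largest changes. The differences between members were not tested.

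**Figure D2:**
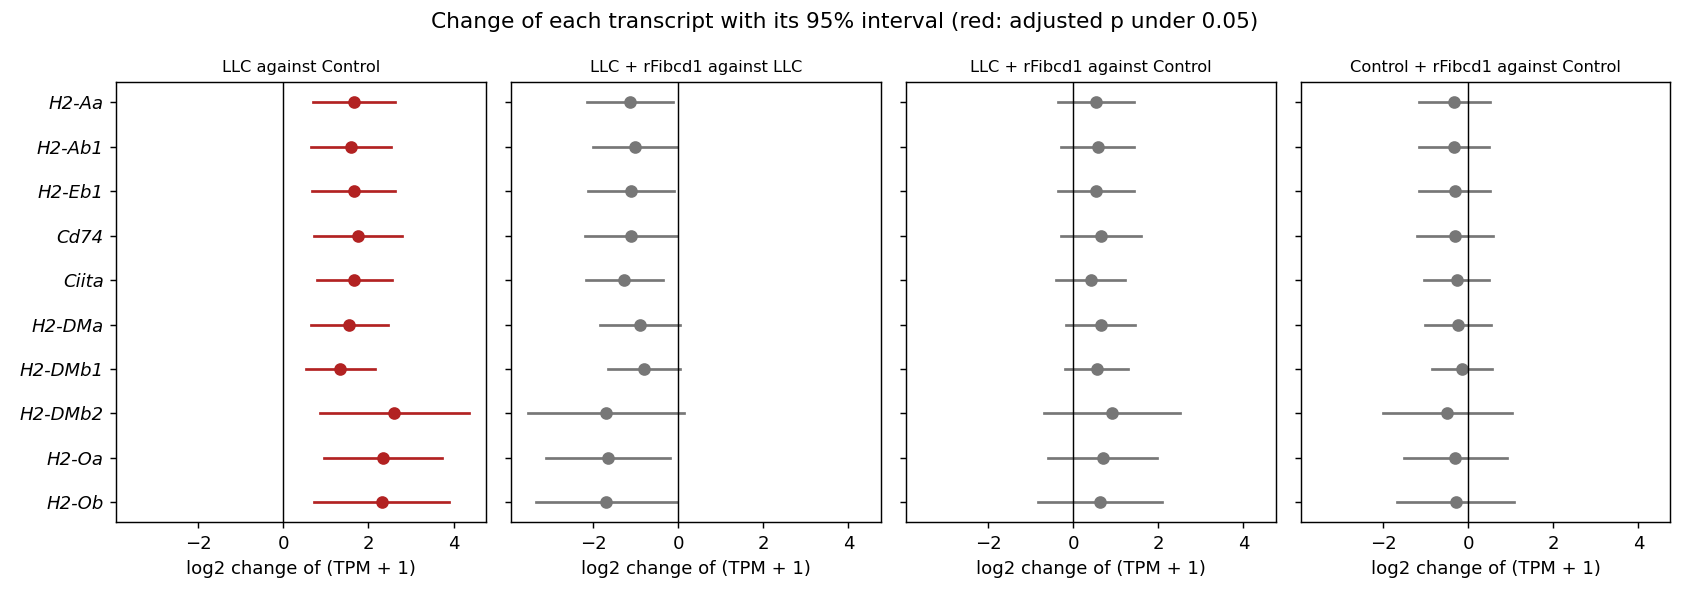
Log2 change of TPM + 1 with its 95% interval (limma) for the 10 class II transcripts in the 4 pairwise comparisons, in red where the adjusted p is under 0.05. All 10 are red in LLC against Control, with changes from 1.34 to 2.60, and none is red in the other comparisons.

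How firmly this call stands depends on single mice. Without LLC replicate 3, 0 of the 10 transcripts passed limma at an adjusted p under 0.05, while 10 had an unadjusted p under 0.05, the changes were 1.27 to 2.49 and the adjusted p 0.0730 to 0.105. Across all genes, 24 were then called. Without LLC replicate 1, 7 of the 10 passed, with 2272 called across all genes (4759 with every mouse). Without Control replicate 3 or Control replicate 5, 8 passed, with 3522 and 3264 called across all genes. In both of the latter fits, H2-DMb2 and H2-Ob were those that did not pass.

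The proportions between the peptide exchange genes differed in how widely they ranged over the mice. H2-DMb2 to H2-DMb1 was 0.999, 1.13, 0.410, 0.439 and 0.195 in Control replicates 1 to 5, and 1.45, 1.42 and 1.55 in LLC replicates 1 to 3. Every LLC mouse was above every Control mouse. In LLC + rFibcd1 replicates 1 to 4 the ratio was 0.451, 0.841, 1.64 and 0.470, and in Control + rFibcd1 it spanned 0.197 to 1.08. The alpha to beta ratio H2-DMa to H2-DMb1 spanned only 0.807 to 1.18 over all 17 mice, with the 3 LLC mice at 1.13 to 1.18. H2-Ob was 1.44 to 1.56 times as abundant as H2-Oa in LLC and 1.43 to 5.11 times in Control, where the highest ratios belong to mice with the fewest H2-Oa reads. The ratios were chosen after the values were seen and were not tested. H2-DMb1 and H2-DMb2 are similar in sequence. Their longest transcripts were identical in 69.1% of 1668 aligned columns, and of the 1305 stretches of 100 bases in the longest H2-DMb1 transcript, 179 (13.7%) occur unchanged in H2-DMb2, and none of the other 8 genes shares such a stretch with another gene. How the authors' counting divided reads from the shared stretches is not given in the sources used here, so the balance of this pair is uncertain.

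**Figure D3:**
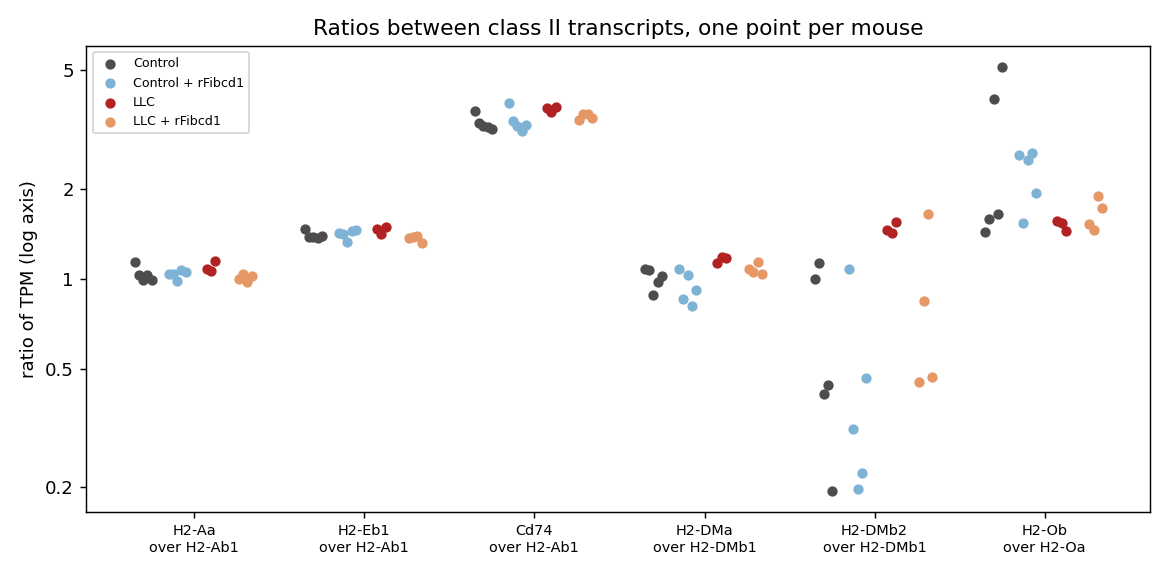
Ratio of TPM between pairs of class II transcripts (log axis), with 1 point per mouse colored by group. The ratios among H2-Aa, H2-Eb1, Cd74 and H2-Ab1 stay in narrow bands, while H2-DMb2 over H2-DMb1 runs from 0.195 to 1.64 with the 3 LLC mice between 1.42 and 1.55.

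The second comparison asked whether rFibcd1 changes class II transcripts in mice with tumors. Of the 10, 0 passed at an adjusted p under 0.05 between LLC + rFibcd1 and LLC (limma), where 0.113% of all genes did, and Dunn's test called 0 as well. At an unadjusted p under 0.05 there were 7 with limma, beside 22.7% of all genes, and 0 with Dunn's test, beside 7.17%. The limma count depended on single mice. It was 1 or 2 without any 1 LLC mouse or without LLC + rFibcd1 replicate 1 or 4, 4 without Control replicate 1, 3 or 4 or Control + rFibcd1 replicate 2 or 5, and 7 to 10 without any other mouse. The same 7 with limma also changed by more than 1.5-fold, beside 4.09% of all genes. The fitted changes were all negative, from -0.80 (H2-DMb1) to -1.69 (H2-DMb2 and H2-Ob), with a median of -1.13 beside -0.11 for all genes and adjusted p between 0.185 and 0.237. None of the 10 separated the groups, which 14.6% of all genes did.

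The 4 LLC + rFibcd1 mice differed widely from each other. Cd74 in replicates 1 to 4 was at 206, 609, 941 and 282 TPM. Replicate 3 lay within the LLC range of 876 to 1030 TPM, replicate 2 lay between the Control and LLC ranges, and replicates 1 and 4 lay within the Control range. H2-Ab1 followed the same order, at 60.8, 171, 265 and 81.7 TPM, as did Ciita, at 0.764, 3.34, 6.95 and 1.23 TPM. H2-Oa was at 0.831, 5.53, 11.1 and 1.01 TPM and H2-Ob at 1.26, 8.06, 21.0 and 1.75 TPM. The coefficient of variation in this group was 55.0% for H2-DMb1 to 115% for H2-Ob.

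With such a spread, the intervals were wide. Cd74 changed by -1.11 (95% interval -2.19 to -0.03, adjusted p = 0.215, limma) and Ciita by -1.27 (-2.18 to -0.35, adjusted p = 0.185). For H2-DMb2 the interval ran from -3.53 to 0.14 (adjusted p = 0.237). Without LLC + rFibcd1 replicate 3, the changes were -1.05 to -2.32 and the lowest adjusted p was 0.0543. Without LLC + rFibcd1 replicate 1 they were -0.50 to -1.26, and the lowest adjusted p was 0.389.

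Against Control, LLC + rFibcd1 had 0 of the 10 transcripts at an adjusted p under 0.05 (limma) and 0 at an unadjusted p under 0.05, where 3.08% of all genes were called. Without LLC + rFibcd1 replicate 1, 4 had an unadjusted p under 0.05. The changes ran from 0.41 (Ciita) to 0.91 (H2-DMb2), and for Cd74 the change was 0.64 (95% interval -0.30 to 1.59, adjusted p = 0.436). For each of the 10 the 95% interval included 0, and its upper bound lay below the estimate for LLC against Control. The comparison shares the Control mice with the first, and passing in LLC but not here is no test of a difference between the tumor groups.

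Tumor-free mice given rFibcd1 did not separate from Control. Cd74 in Control + rFibcd1 replicates 1 to 5 was at 525, 216, 128, 137 and 257 TPM, and replicate 1 was above every Control mouse. Ciita was at 2.53, 0.934, 0.564, 0.720 and 1.42 TPM. Of the 10 transcripts, 0 passed at an adjusted p under 0.05 and 0 at an unadjusted p under 0.05 (limma), in a comparison that called 0% of genes, with changes of -0.15 (H2-DMb1) to -0.49 (H2-DMb2). For Cd74 the interval was -1.21 to 0.58.

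Pooling both tumor groups, 10 of the 10 transcripts passed as higher in the 7 tumor-bearing than in the 10 tumor-free animals (limma, adjusted p under 0.05), where 44.8% of all genes were called. Changes ran from 0.96 ± 0.26 (H2-DMb1, SE; adjusted p = 0.00941) to 1.88 ± 0.55 (H2-DMb2, adjusted p = 0.0145), and Cd74 rose by 1.28 ± 0.33 (adjusted p = 0.00779). At least 9 of the 10 passed in each fit that left out 1 mouse. The interaction, the test of a difference in the rFibcd1 change between tumor-bearing and tumor-free mice, called 0 of the 10 and 0% of all genes, and 0 had an unadjusted p under 0.05 (3 without LLC + rFibcd1 replicate 3). Its estimates ran from -0.65 (H2-DMb1) to -1.39 (H2-Ob), and Ciita had the lowest p, 0.0957 (adjusted p = 0.652).

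Other genes of the pathway were followed in LLC against Control from lists chosen with earlier results known. H2-Eb2, a further beta chain gene of low expression, rose by 1.68 ± 0.42 (adjusted p = 0.0131, limma), with a mean of 0.749 ± 0.617 TPM over the 5 Control mice and 4.35 ± 0.737 TPM over the 3 LLC mice (SD). Of the 7 factors that bind class II promoters, 1 passed as higher, beside 29.7% of all genes. This was Rfx5, a subunit of the RFX complex on the X box, which rose by 0.80 ± 0.19 (adjusted p = 0.0113, limma). Its partners Rfxap and Rfxank changed by 0.06 and 0.20, the subunits of the Y box factor NF-Y, Nfya, Nfyb and Nfyc, by 0.35, -0.07 and -0.09, and Creb1 by 0.22. The median of the 7 was 0.20, close to the 0.16 of all genes.

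Interferon gamma, the main inducer of Ciita outside professional antigen-presenting cells, did not pass the filter, with at most 0.232 TPM in any mouse. Of 6 tested genes in its signaling, 3 were higher, beside 29.7% of all genes: Irf1 by 0.55 ± 0.18, Ifngr1 by 0.46 ± 0.13 and Jak1 by 0.29 ± 0.11. Ifngr2, Jak2 and Socs1 changed by 0.02, -0.02 and 0.40 and did not pass. The 3 that passed moved less than any of the 10 class II transcripts.

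Among 8 genes that supply peptides, trim the invariant chain or turn class II over, 5 were higher in LLC, beside 29.7% of all genes. Ctss, the protease that cleaves the last part of the invariant chain in B cells and dendritic cells, rose by 1.67 ± 0.53 (adjusted p = 0.0260, limma). Cd83, which stabilizes class II on the surface, rose by 1.31 ± 0.47, the thiol reductase Ifi30 by 1.27 ± 0.38 and the ubiquitin ligase March1, which sends class II to lysosomes, by 0.89 ± 0.27. Ctsl, the protease of thymic epithelium for the same step, rose by 0.24 ± 0.08, and Lgmn, Sppl2a and March8 changed by 0.26, 0.04 and 0.02 without passing. Of 8 tested genes of the contact with CD4 T cells, 7 were higher, among them Cd4 itself by 1.61 ± 0.41, the inhibitory class II receptor Lag3 by 1.15 ± 0.32, and the costimulators Cd40 and Cd86 by 1.08 ± 0.28 and 0.97 ± 0.27. Icosl, Cd80 and Cd28 rose by 0.88, 0.78 and 0.48, Ctla4 changed by 0.40 without passing, and Icos and Cd40lg did not pass the filter on low values. In LLC + rFibcd1 against LLC, 0 genes of these lists passed, and unadjusted p under 0.05 was found for 1 of 7 promoter factors, 4 of 6 interferon gamma genes, 2 of 8 peptide supply genes and 5 of 8 contact genes (limma), beside 22.7% of all genes.

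**Figure D4:**
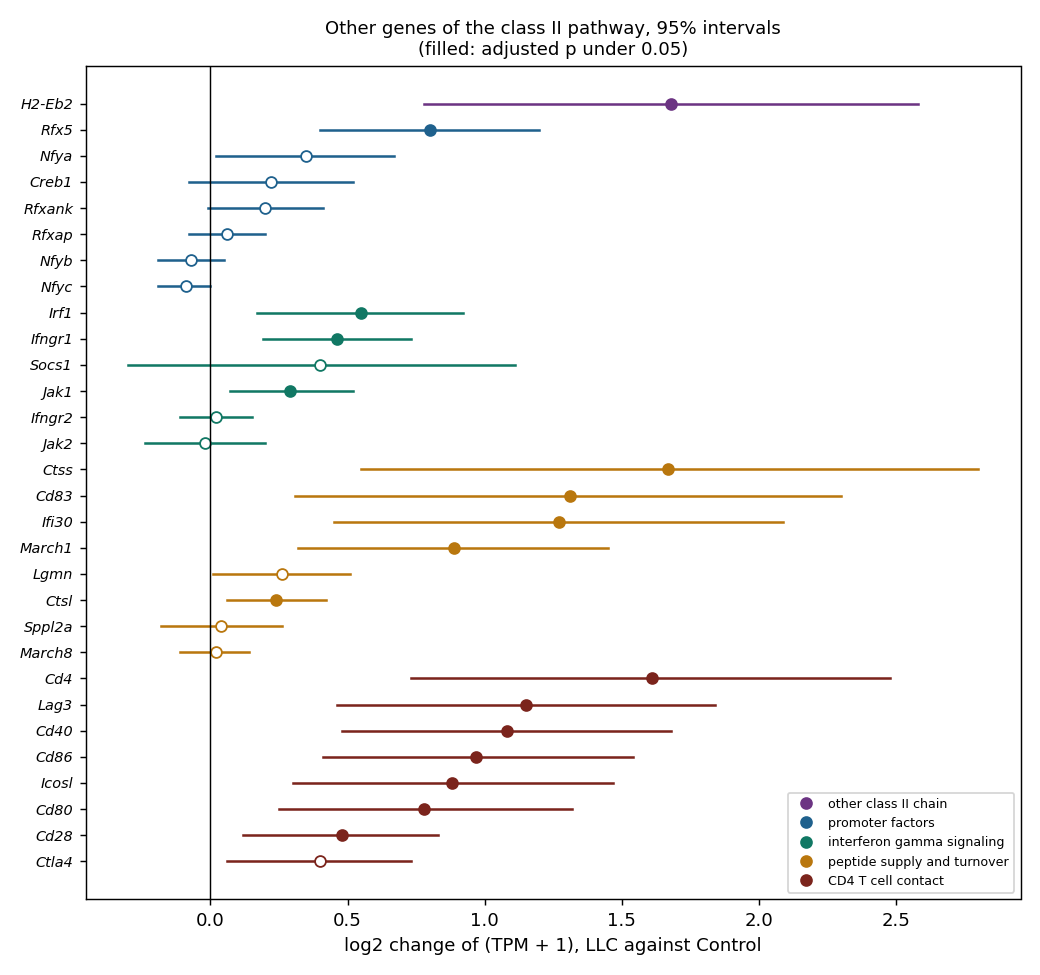
Log2 change of TPM + 1 from Control to LLC with its 95% interval (limma) for other genes of the class II pathway, colored by list and filled where the adjusted p is under 0.05. H2-Eb2 (1.68), Ctss (1.67) and Cd4 (1.61) are farthest to the right, and most promoter factors lie near 0.

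Most of the class II genes are neighbours on 1 chromosome. On chromosome 17 of GRCm38, 8 of the 10 genes lie between 34092340 and 34316674, among them H2-Oa at 34092340 to 34095234 and H2-Eb1 at 34305867 to 34316674, and Ciita lies on chromosome 16 at 10480059 to 10528418. Within that stretch 5 other genes were tested, and all 5 were higher in LLC than in Control, beside 29.7% of all genes. Psmb8 and Psmb9, subunits of the immunoproteasome, rose by 1.15 ± 0.34 and 1.12 ± 0.35, the class I peptide transporter genes Tap1 and Tap2 by 1.15 ± 0.35 and 0.64 ± 0.18, and Brd2 by 0.28 ± 0.08.

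The transcripts rose and fell together within groups as well. Over the 17 mice, the deviation of each gene from its group mean was compared with that of the mean of H2-Aa, H2-Ab1, H2-Eb1 and Cd74 (log2 scale), a description over mice that share groups. Among the remaining members, Pearson's r was 0.952 for H2-Oa to 0.989 for H2-DMb1, with 0.964 for Ciita. The genes outside the 10 with the most similar pattern were Lrmp (0.984), Unc93b1 (0.983), Gimap3 (0.982), Tmem123 (0.981) and Psmb8 (0.977), followed by Zc3h12d, Ptpn6, Rasgrp1, Cd53 and Arhgap9 (0.975 to 0.976). Without LLC + rFibcd1 replicate 3 and Control + rFibcd1 replicate 1, the mice farthest from the middle, the r of these 10 genes was 0.954 to 0.983. Among the 7 promoter factors, r was 0.834 for Nfya, 0.702 for Rfx5, 0.697 for Rfxank, 0.668 for Creb1, 0.504 for Rfxap, 0.332 for Nfyb and -0.139 for Nfyc. For the 5 neutrophil genes r ran from -0.126 (Retnlg) to 0.232 (Csf3r). Markers of other cells were closer, with r of 0.917 (Cd79a) to 0.970 (Fcrla) for B cells and 0.849 (Cd8a) to 0.962 (Cd2) for T cells. It was 0.306 (Zbtb46) to 0.907 (Ccr7) for dendritic cells and 0.530 (Fcgr1) to 0.865 (Cd68) for macrophages.

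Markers of the cells that carry class II moved with the 10 transcripts, and so did markers of other cells. In LLC against Control, 10 of 10 B cell markers were higher, with a median change of 2.40 (log2), 4 of 6 tested dendritic cell markers (0.86), 6 of 10 macrophage markers (0.88) and 3 of 5 monocyte markers (1.51), beside 29.7% of all genes called higher. All 7 T cell markers were also higher (1.63), although mouse T cells carry little class II. So were 3 of 6 plasma cell markers (1.67). Of 5 adipocyte markers 0 passed, at a median change of 1.72, of 5 mesothelium markers 0 (0.64) and of 6 endothelium markers 1 (0.08). Adipocyte markers summed to 68.1 to 431 TPM in Control, 84.2 to 514 in Control + rFibcd1, 219 to 1090 in LLC and 84.6 to 467 in LLC + rFibcd1. In LLC + rFibcd1 against LLC, 0 markers of any list passed, and the median change was -1.73 for B cells, -1.28 for plasma cells, -1.19 for T cells, -1.03 for adipocytes, -0.70 for monocytes, -0.57 for mesothelium, -0.49 for dendritic cells and -0.47 for macrophages, beside -1.13 for the 10 class II transcripts. The median was positive for neutrophils (0.20), endothelium (0.17) and myofibers (0.11), beside -0.11 for all genes. Unadjusted p under 0.05 was found for 4 of 10 B cell, 5 of 7 T cell and 2 of 6 plasma cell markers, 1 each of the dendritic cell and monocyte markers and 0 of the adipocyte, mesothelium, macrophage and neutrophil markers, beside 22.7% of all genes (limma). It was also found for 2 of 6 endothelium and 2 of 8 myofiber markers (Cdh5, Tek, Des and Mb), all with positive changes. The part of the adipocytes in the class II result was not tested. The summed TPM of the B cell markers ran from 2.82 to 114 in Control, 4.21 to 161 in Control + rFibcd1, 265 to 338 in LLC and 21.1 to 332 in LLC + rFibcd1. For dendritic cell markers the sums were 9.06 to 16.3, 6.87 to 22.4, 24.8 to 28.5 and 10.6 to 23.3, and for macrophage markers 162 to 279, 107 to 437, 372 to 459 and 192 to 432, in the same order of groups. No defining marker of dendritic cells or macrophages was at 0 in any mouse, and of the B cell markers Cr2 was at 0 in 1 mouse. Myofiber markers summed to 46200 to 50300 TPM in Control and 39300 to 42200 in LLC, as the tissue label has it. In LLC against Control, 4 of 8 were lower and 0 higher, beside 35.8% of all genes called in either direction and 29.7% called higher.

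With a marker score (the mean of log2(TPM + 1) over the markers) as a covariate, the tumor change was no longer called for the 10 transcripts, nor for nearly any other gene. The share of all genes called fell from 35.8% to 0.0526% with the B cell score and to 0% with each of the other scores, so the counts of 0 say nothing particular about class II. For the B cell score, 0 of 10 passed in LLC against Control, the changes were 0.04 to 0.47 and the adjusted p 0.279 to 0.909 (limma). For the dendritic cell score the changes were -0.61 to 0.13. Scores added after the data were seen also left 0 of 10 passing, with changes of 0.46 to 1.11 for the macrophage score and -0.14 to 0.29 for the T cell score. The scores left changes of different size, but each left 0 of 10 passing, the T cell score included. These fits do not tell 1 cell type from another, and the part of each cell type in the result was not tested.

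**Figure D5:**
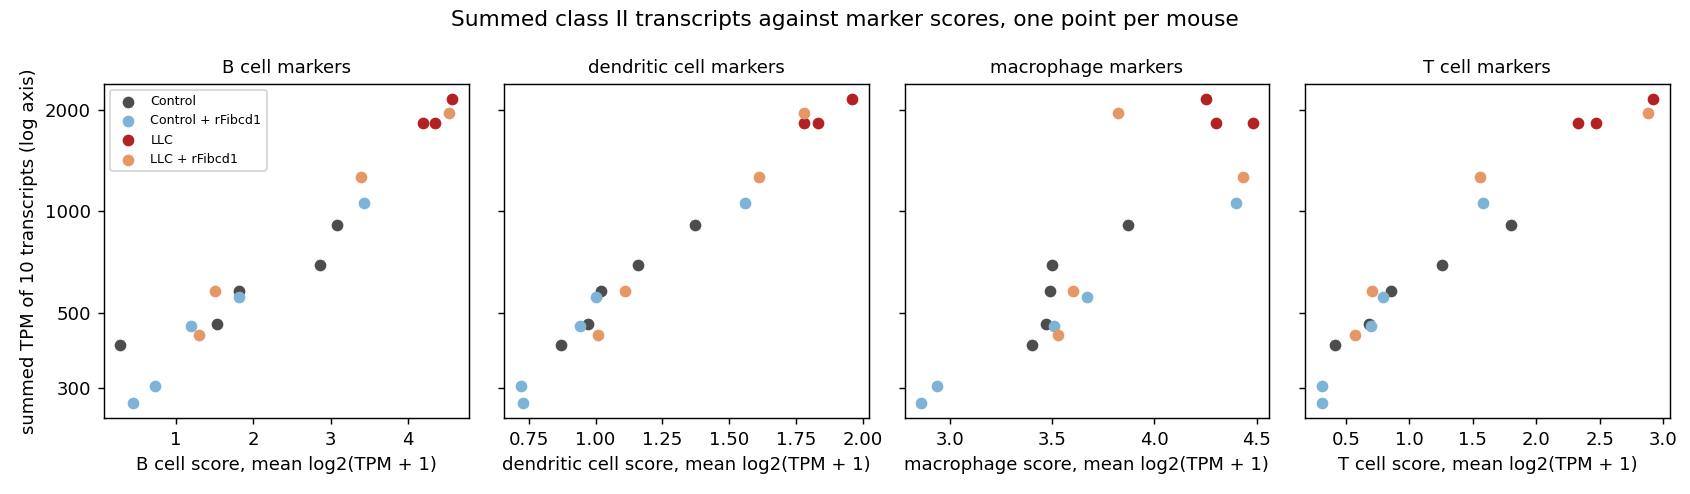
Summed TPM of the 10 class II transcripts (log axis) against the B cell, dendritic cell, macrophage and T cell score (mean log2 of TPM + 1), with 1 point per mouse colored by group. The sum runs from 270 TPM in a Control + rFibcd1 mouse to 2160 TPM in an LLC mouse and increases along each score, with the widest scatter for macrophages.

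Neutrophil markers, of cells that carry little class II, gave a contrast. In LLC against Control, 5 of 5 tested were higher (median change 1.64), and in LLC + rFibcd1 against Control 5 of 5 were also higher, where 0 of the 10 class II transcripts passed. Over all genes, 29.7% were called higher in the former comparison, and 3.08% were called in either direction in the latter. Their summed TPM was 1.84 to 14.3 in Control, 2.87 to 78.4 in Control + rFibcd1, 45 to 106 in LLC and 55.0 to 206 in LLC + rFibcd1, so all 4 LLC + rFibcd1 mice were above all Control mice but not above all Control + rFibcd1 mice, while for the class II transcripts 2 of the 4 lay in the Control range. The difference between the lists was not tested.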

How the data were processed

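Diaphragm RNA was sequenced from 17 mice in 4 groups, assigned from the sample titles. The authors aligned paired reads to mouse build GRCm38 (mm10) and counted genes in CLC Genomics Workbench, and the deposited values are TPM. The annotation release and the strandedness of counting are not given in the sources used here, so overlapping genes may share reads. All 17 columns matched a sample (0 left over). Depth was estimated from the steps of low values with GENCODE vM21 exon lengths and entered no test. Coordinates are from that annotation, counted from 1.

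A pseudocount of 1 was added and log2 values were fitted for 13305 genes (1 TPM or more in 3 or more mice) in 1 model of 4 groups with limma 3.58.1 (R 4.3.3, empirical Bayes with trend, two-sided, Benjamini-Hochberg over all genes tested, threshold 0.05, 13 residual degrees of freedom). A fold change on this scale understates changes of low genes. The study's rank test was replaced as the main test because its normal approximation is poor in groups this small, and Dunn's test was run beside it. Alternatives covered the pseudocount, the filter, the scaling, covariates, the replicate number as a block, and leaving out each mouse. The fit was tested on simulated data. All 10 members are reported. Genes named outside them come from the pathway and marker lists, the neighbours on the chromosome, and the 10 genes with the highest r to the mean of 4 class II genes. The members and lists were chosen with earlier results of these data known. From the lists, 1 gene was left out of the list counts and is not reported here. The labels gave no batch.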

Additional observations from a re-analysis of the deposited data

Results flagged for a closer look

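In Control + rFibcd1, replicate 1 stood apart from the other 4 mice of its group in 3 of the 10 transcripts, with a gap to the next mouse that made up most of the range of the group. Its TPM was 16.4 for H2-DMb2 (0.783 of the range), 4.16 for H2-Oa (0.734) and 10.8 for H2-Ob (0.814). Of 30 sets of values checked this way (10 transcripts in the 3 groups of 4 or 5 mice), these 3 passed the limit. About 1 in 20 sets does so by chance where values are normally distributed. The 3 flags belong to 1 mouse and the transcripts moved together, so they are not 3 independent cases. The same mouse had the highest score of its group for each of 4 cell types, 3.43 for B cells (0.44 to 1.81 in the other 4 mice), 1.56 for dendritic cells (0.72 to 1.00), 4.4 for macrophages (2.86 to 3.67) and 1.58 for T cells (0.31 to 0.79). Leaving it out changed no count of called members.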

How the results depend on the processing

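In LLC against Control, all 10 transcripts kept their call and direction with a pseudocount of 0.1 TPM, without a filter, with only the groups compared, and under 3 other scalings, which moved the median of all genes from 0.16 (log2) to -0.014 (median ratio), -0.099 (quantile) and 0.081 (without mitochondrially encoded genes). Under these scalings, in the same order, 48.1% of 3922, 32.2% of 4685 and 64.2% of 4094 called genes were higher. The background of 29.7% called higher thus holds for the deposited scaling only. The count of called transcripts was 0 with the B cell, dendritic cell, macrophage or T cell score as a covariate (the last pair added after the data were seen) and with Dunn's test (10 at an unadjusted p under 0.05, adjusted p 0.118 to 0.123), and 0 to 10 over the fits without 1 mouse. Over all genes the calls fell from 4759 to 7 with the B cell score, 0 with the other scores and 0 with Dunn's test. In tumor-bearing against tumor-free mice the count was 0 with each of the 4 scores, where the calls over all genes fell from 5963 to 581 (B cell), 47 (dendritic cell), 783 (macrophage) and 271 (T cell), and 9 to 10 without 1 mouse. In LLC + rFibcd1 against LLC it was 7 at a limma p under 0.05 with a change above 1.5-fold (4.09% of all genes). The study gives that cutoff for its heatmap, with its own rank test, and another fold cutoff for its list of genes in this comparison. With Dunn's test, 0 had an unadjusted p under 0.05, beside 7.17% of all genes. The count at an adjusted p under 0.05 was 0 in every fit without 1 mouse. The counts of LLC + rFibcd1 and of Control + rFibcd1 against Control, and of the interaction, were 0 in each setting run.

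With the replicate number as a block, 0 transcripts passed in LLC against Control (10 at an unadjusted p under 0.05, adjusted p 0.0653 to 0.118; 5 genes over all) and 7 passed in tumor-bearing against tumor-free mice (3782 genes over all). The numbers are not a pairing: of 22 pairs of mice with the same number in different groups, 4 had correlated deviations (r over 0.1), with r from -0.459 to 0.485.

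The sign turned with the dendritic cell score in LLC against Control for H2-Aa (-0.10), H2-Ab1 (-0.15), H2-Eb1 (-0.13), Cd74 (-0.16), H2-DMa (-0.10), H2-DMb1 (-0.14), H2-DMb2 (-0.61), H2-Oa (-0.11) and H2-Ob (-0.58), and in LLC + rFibcd1 against LLC for H2-Ab1 (0.05), Cd74 (0.06), H2-DMa (0.10), H2-DMb1 (0.12), H2-DMb2 (0.28) and H2-Ob (0.08). It turned with the T cell score in LLC against Control for H2-DMb2 (-0.08) and H2-Ob (-0.14), and in LLC + rFibcd1 against LLC for H2-Ab1 (0.03), Cd74 (0.03), H2-DMa (0.06), H2-DMb1 (0.08), H2-DMb2 (0.26) and H2-Ob (0.09), and with the B cell score there for H2-DMb2 (0.03). None of these turned values passed, and the cause was not tested. Depth limits H2-Oa most, at an estimated 4 reads in its lowest mouse.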
